A study of Mus musculus with 14 samples.

Results

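The genes of the Rbm family encode RNA-binding proteins, most of them built around 1 or more RNA recognition motifs. The members were taken from the table of left ventricle counts as the protein-coding genes outside chromosome Y whose symbols begin with Rbm and a digit, with Rbms or with Rbpms, which gave 43 of 47642 genes. The rule used only names, no measured value, and a shared name does not make these proteins a single lineage. The 14 libraries, made with the QuantSeq 3′ FWD kit so that reads come from the 3′ ends of polyadenylated RNA, were prepared from total RNA of the left ventricle of 40-day-old male mice, with 7 libraries of UtyGT and 7 of WT. UtyGT males carry a gene trap within intron 4 of Uty, a chromosome Y gene, brought in with E14Tg2a.4 embryonic stem cells of 129P2/OlaHsd origin and then bred to C57BL/6J. WT males were of the isogenic strain C57BL/6.Y<129P2>, made by the same breeding from 129P2/OlaHsd males, so that both genotypes share the 129P2 chromosome Y and no Cre or drug was used. The trap acts in every cell that transcribes the gene, and a ventricle holds many cell types, so fewer cells of a type and less RNA per cell cannot be told apart.

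Proteins of this family act along the whole life of a transcript. Some sit within the spliceosome or next to the splice sites and set which exons are kept, some carry finished messages to export, methylation or surveillance, and others work on ribosomes. In heart muscle the best known are RBM20, which controls the splicing of titin and is mutated in dilated cardiomyopathy, and RBM24, which is needed for splicing and assembly of the sarcomere.

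Levels are given in CPM, counts relative to the library total scaled by the TMM method, as mean ± SD over 7 libraries. Because the kit gives about 1 read for each transcript at its 3′ end, CPM were compared between genes without division by transcript length. Fold changes are log2 of UtyGT over WT ± SE, and a gene is said to be called where the adjusted p of the edgeR quasi-likelihood test, over 11563 tested genes, was below 0.05. Depth, as reads in genes, was 6322161 to 9397378 in WT and 6357485 to 10268706 in UtyGT. Each WT library held 47 to 75 counts of Uty itself and each UtyGT library 1 to 6, and the mean of its neighbor Ddx3y was 95.8 ± 7.05 CPM in WT against 15.8 ± 6.06 in UtyGT (adjusted p = 1.77e-06), so that every library followed its label. On the first principal component, with 45.8% of the variance, WT 4 (-59.1) and UtyGT 6 (-54.7) lay apart from the other libraries of their genotype. WT 6 (24.6) and WT 7 (33.2) lay among the remaining UtyGT libraries (0.03 to 45.4), away from the remaining WT libraries (-26.2 to -11.1). Cardiomyocyte markers were abundant in every library, with a summed level of 55964 to 110522 CPM in WT and 56942 to 102325 CPM in UtyGT. Within these ranges, WT 6 and WT 7 were at 59283 and 55964 CPM and the other WT libraries at 83957 to 110522 CPM. UtyGT 6 was at 102325 CPM and the other UtyGT libraries at 56942 to 68878 CPM. The sums thus differed with genotype apart from WT 6, WT 7 and UtyGT 6, and their part in the members' values was not tested.

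Of 43 members, 34 had enough counts for a test. Rbm27, Rbpms2 and Rbm25 rose in UtyGT, each by about 1.5-fold or more, and Rbm45 fell. The 3 that rose are 8.82% of the tested members, where 4.7% of all tested genes were called higher, and the 1 that fell is 2.94%, where 3.34% of all tested genes were called lower. In both directions together 8.03% of all tested genes were called. The log2 fold change was positive in 24 tested members and negative in 10, with a median of 0.20, against a median of 0.01 and 51.1% positive over all tested genes. No member had libraries that did not overlap between genotypes, as 2.14% of all tested genes did. At an unadjusted p below 0.05 there were 4 members higher and 2 lower, 17.6% of those tested, where the share over all tested genes was 24.8%.

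**Figure D1:**
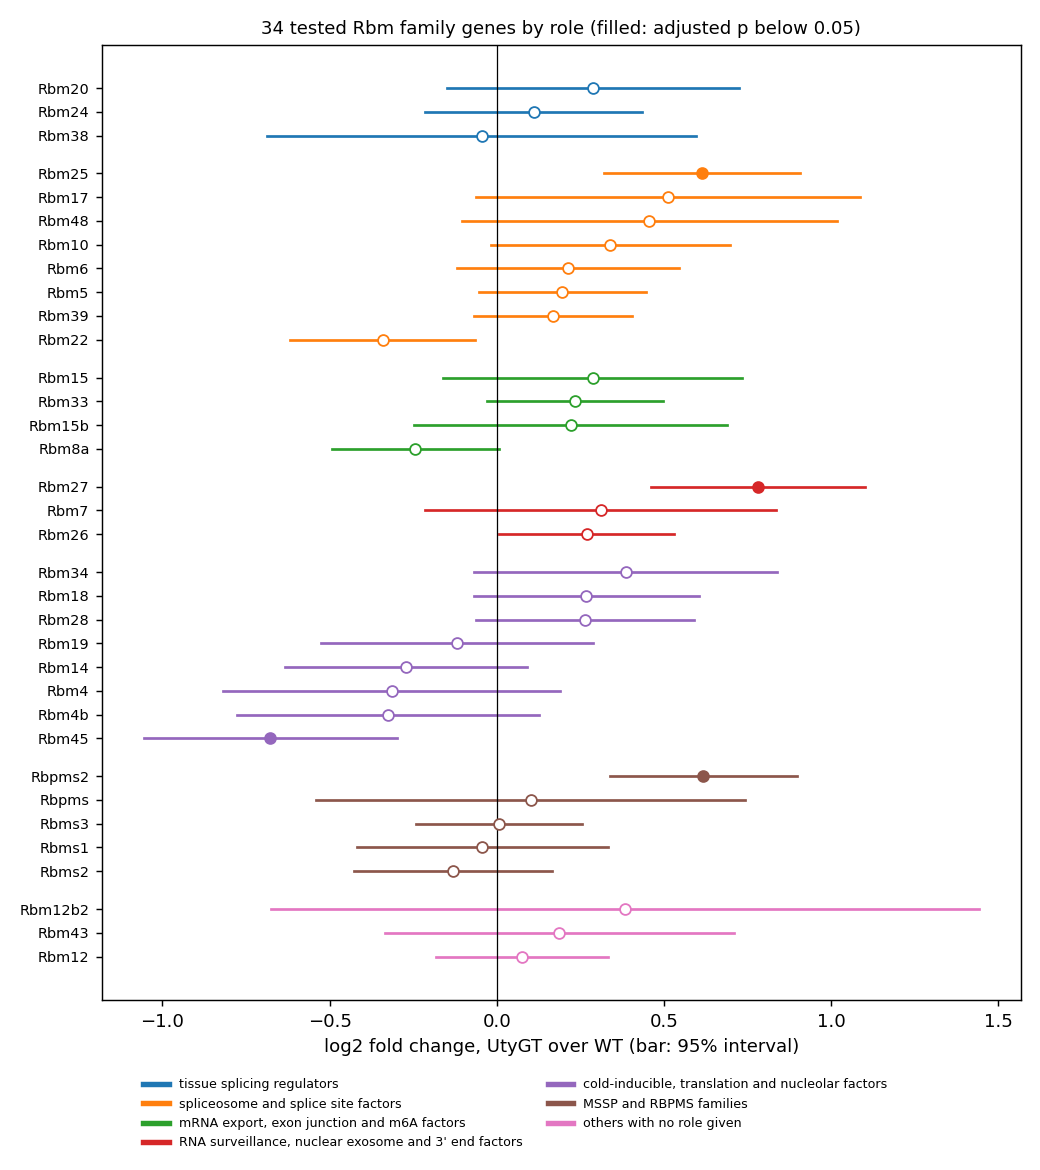
Log2 fold change of UtyGT over WT (horizontal axis) for 34 tested members, grouped by role (colours), with 95% intervals as bars and called genes as filled circles. The 4 filled circles are Rbm25, Rbm27, Rbpms2 and Rbm45, and 24 of the 34 circles lie to the right of 0.

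Rbm27 encodes a zinc finger and RNA recognition motif protein that, in human cells, binds the complex passing polyadenylated nuclear RNA to the exosome. In WT its level was 14.8 CPM in the lowest library, 19.1 in the median and 24.02 in the highest, and in UtyGT it was 22.4, 34.3 and 40.6. Above every WT library lay 6 of 7 UtyGT libraries, and UtyGT 6, at 22.4 CPM, lay within the WT range. Rbm27 rose from 19.1 ± 2.99 to 32.8 ± 7.19 CPM (log2 fold change 0.78 ± 0.15, edgeR adjusted p = 0.0073), the largest rise among the tested members. It was called under all 22 alternatives, at log2 fold changes of 0.61 to 0.84.

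Rbpms2 encodes a protein enriched in heart muscle cells, and in zebrafish and human cardiomyocytes it regulates splicing of muscle transcripts. It was measured at 55.8, 77.3 and 85.3 CPM in the lowest, median and highest WT libraries and at 81.2, 121 and 131 CPM in those of UtyGT. As for Rbm27, 6 of 7 UtyGT libraries exceeded every WT library and UtyGT 6 was the exception. The mean rose from 72.7 ± 12.2 to 112 ± 17.5 CPM (log2 fold change 0.62 ± 0.13, edgeR adjusted p = 0.0119), and it too was called under all 22 alternatives. Rbpms, its close paralog, had means of 75.3 ± 35.0 CPM (WT) and 80.7 ± 34.5 CPM (UtyGT), with no call (0.10 ± 0.30, adjusted p = 0.87). The difference between the paralogs was not tested, and the Rbpms interval (-0.54 to 0.74) includes the Rbpms2 value.

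Rbm25 encodes a factor with an RNA recognition motif and a PWI domain that associates with the U1 particle at 5′ splice sites. Levels in WT were 55.4 CPM in the lowest, 77.2 in the median and 90.9 in the highest library, and in UtyGT they were 89.3, 109 and 158. Again 6 of 7 UtyGT libraries lay above the WT range, but here UtyGT 6 was the highest of all and UtyGT 2 the lowest of its genotype. The mean rose from 74.7 ± 12.9 to 114 ± 22.1 CPM (log2 fold change 0.61 ± 0.14, edgeR adjusted p = 0.015). The transcript of Rbm25 is poor in G and C (37.5%, against a median of 49.7% over all tested genes), and with a correction for GC content it was no longer called (0.44, adjusted p = 0.156), whereas with a correction for the GC content of the last 500 nt it was called (0.68).

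Rbm45 encodes a protein that binds single-stranded RNA and, in human neurodegenerative disease, is found in inclusions. In WT it was measured at 6.52, 8.43 and 11.1 CPM in the lowest, median and highest library, and in UtyGT at 3.47, 5.32 and 6.93 CPM. Below every WT library lay 6 of 7 UtyGT libraries, with UtyGT 6 the lowest and UtyGT 5 within the WT range. Rbm45 fell from 8.62 ± 1.69 to 5.40 ± 1.21 CPM (log2 fold change -0.68 ± 0.18, edgeR adjusted p = 0.0305). Depth was lower here, at 49 to 97 counts per library in WT and 32 to 59 in UtyGT. The call was lost without a filter on low counts (adjusted p = 0.0535), and without any 1 of WT 2, WT 3, WT 5, UtyGT 1, UtyGT 2 or UtyGT 7 (0.058 to 0.067), at log2 fold changes between -0.61 and -0.69.

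**Figure D2:**
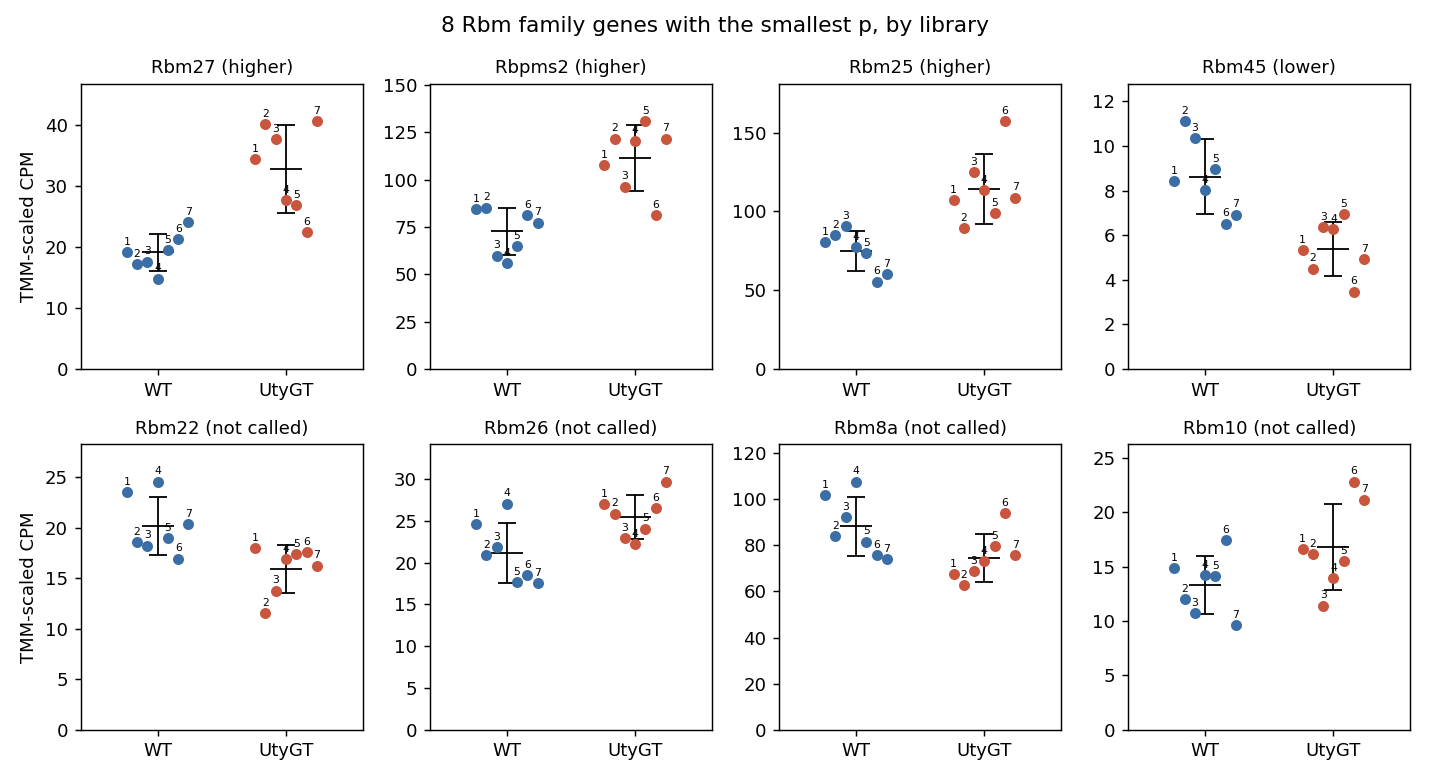
TMM-scaled CPM (vertical axes, from 0) of the 8 members with the smallest p, in 7 WT and 7 UtyGT libraries (numbered points), with mean and SD as black bars. In Rbm27 and Rbpms2 the UtyGT 6 point sits within the WT range, at 22.4 and 81.2 CPM, whereas in Rbm25 it is the highest point, at 158 CPM.

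To show what lies upstream of members that moved, RefSeq windows of 300 bases on GRCm38.p6, from 250 before to 50 after an annotated start, were read for Rbpms2 and Rbm45. Capitals mark the matches on either strand to GGGCGG and CCAAT in Rbpms2 and to CCGGAAG in Rbm45.
Rbpms2, chr9:65630332-65630631, + strand: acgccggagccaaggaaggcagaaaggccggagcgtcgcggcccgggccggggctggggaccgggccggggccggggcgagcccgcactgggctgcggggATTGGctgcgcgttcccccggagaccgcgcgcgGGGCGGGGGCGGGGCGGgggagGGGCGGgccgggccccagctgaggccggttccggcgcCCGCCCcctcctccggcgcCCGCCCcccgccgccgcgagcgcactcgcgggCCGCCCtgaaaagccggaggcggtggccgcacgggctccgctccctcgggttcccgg
Rbm45, chr2:76369734-76370033, + strand: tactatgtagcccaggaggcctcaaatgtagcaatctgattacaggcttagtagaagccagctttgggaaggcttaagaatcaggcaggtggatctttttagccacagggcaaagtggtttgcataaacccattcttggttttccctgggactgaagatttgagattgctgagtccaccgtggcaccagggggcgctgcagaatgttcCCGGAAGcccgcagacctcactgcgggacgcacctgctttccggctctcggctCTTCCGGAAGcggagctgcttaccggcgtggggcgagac
The Rbpms2 window was 83.3% G and C with 48 CpG and 7 GGGCGG matches, and its start lay 934 bases within the deposited gene span. The Rbm45 window was 55.3% G and C with 13 CpG and 3 CCGGAAG matches, and its start was that of the deposited gene. The Rbm25 window, at a RefSeq start 4474 bases within the deposited gene, is not shown. It was 35% G and C with 0 CpG, no GGGCGG and 1 TATAAA match, so the windows of Rbpms2 and Rbm25 did not resemble each other. Which start was in use in these ventricles was not tested. No window was found for Rbm27, so the risers were not compared as a set.

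Windows were found for 33 of 43 members, 41 windows in all, and were compared with 32851 windows of all genes. The members' windows had a median of 59.7% G and C and 21 CpG, against 52.7% and 7. On either strand, CCAAT was present in 39% of the members' windows and 37.4% of all windows, GGGCGG in 41.5% and 35.7%, CCGGAAG in 12.2% and 8.86%, CACGTG in 9.76% and 7.15%, and TATAAA in 14.6% and 13.6%. An inverted repeat, TCTCG followed directly by its reverse complement, was present in 3 of 41 members' windows (7.32%) and in 0.466% of all windows. These 3 windows, from Rbm15, Rbm26 and Rbm39, are shown with 20 bases on either side and the inverted repeat in capitals.
Rbm15, chr3:107333457-107333506, - strand: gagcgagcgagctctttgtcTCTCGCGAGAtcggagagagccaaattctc
Rbm26, chr14:105177292-105177341, - strand: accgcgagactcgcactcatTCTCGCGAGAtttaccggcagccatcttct
Rbm39, chr2:156180213-156180262, - strand: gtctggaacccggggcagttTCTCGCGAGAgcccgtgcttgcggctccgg
None of the 3 was called. Their log2 fold changes were 0.29 ± 0.21 for Rbm15, 0.27 ± 0.12 for Rbm26 and 0.17 ± 0.11 for Rbm39.

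The spliceosome and splice site factors were the group with the most tested members, together with the cold-inducible, translation and nucleolar group. Of 10 splicing factors 8 were tested, 1 was called higher (Rbm25) and none lower, and the median log2 fold change was 0.28. The other positive members were Rbm17, which helps recognise 3′ splice sites, Rbm48, a minor spliceosome factor, Rbm10, Rbm6, Rbm5 and Rbm39. Rbm39 encodes a relative of the large U2AF subunit, and with Rbm24 it was the most abundant member. It was measured at 162, 216 and 239 CPM in the lowest, median and highest WT libraries and at 199, 237 and 278 CPM in those of UtyGT, and the genotypes overlapped (log2 fold change 0.17 ± 0.11, adjusted p = 0.371). Rbm5, whose protein controls exon choice in apoptosis genes, was measured at 28.0, 38.0 and 41.6 CPM in WT and at 34.4, 41.9 and 45.8 CPM in UtyGT (0.20 ± 0.12, adjusted p = 0.317). Its ranges overlapped, and 6 of 7 UtyGT libraries lay above the WT mean.

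Rbm10, a paralog of Rbm5 on chromosome X, was measured at 9.61, 14.1 and 17.5 CPM in the lowest, median and highest WT libraries and at 11.4, 16.2 and 22.8 CPM in those of UtyGT. Only UtyGT 6 and UtyGT 7 exceeded the WT range (log2 fold change 0.34 ± 0.17, adjusted p = 0.226). Rbm10 overlaps Ndufb11 on the opposite strand, a gene with 66086 counts in all, so its own count is uncertain if strand was not used. Rbm22, which binds near the catalytic centre of the spliceosome, was the only splicing factor with a negative fold change. It was measured at 17.0, 19.0 and 24.6 CPM in WT and at 11.5, 16.9 and 17.96 CPM in UtyGT. All 7 UtyGT libraries lay below the WT mean and 4 lay below the WT range, yet the adjusted p was 0.118 (-0.34 ± 0.13). Rbm17 varied widely among libraries of the same genotype, from 18.1 to 52.0 CPM in WT and from 25.9 to 67.0 CPM in UtyGT (0.51 ± 0.27, adjusted p = 0.255).

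The surveillance group consisted of Rbm7, Rbm26 and Rbm27, and the fold change was positive in all 3, with Rbm27 alone called. Rbm26 is the close paralog of Rbm27. It was measured at 17.5, 20.9 and 27.1 CPM in the lowest, median and highest WT libraries and at 22.2, 25.9 and 29.7 CPM in those of UtyGT. All UtyGT libraries lay above the WT mean, but only UtyGT 7 exceeded the WT range (log2 fold change 0.27 ± 0.12, adjusted p = 0.189). Rbm26 shares a strand and part of its span with Gm17066 (2802 counts), so reads can have been split between them. Rbm7 encodes the RNA-binding subunit of the nuclear exosome targeting complex and had means of 9.34 ± 2.57 CPM (WT) and 11.6 ± 4.16 CPM (UtyGT), with no call (0.31 ± 0.25, adjusted p = 0.466).

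Among the 4 tested members that act in export, the exon junction complex or m6A methylation, none was called and the median log2 fold change was 0.23. Rbm15 and Rbm15b encode adaptors that bring the m6A writer to RNA, and had log2 fold changes of 0.29 and 0.22. Rbm33, whose human protein works with the m6A eraser ALKBH5, had one of 0.23, with all UtyGT libraries above the WT mean. Rbm8a encodes Y14, a core subunit of the exon junction complex, and was measured at 74.0, 84.1 and 108 CPM in the lowest, median and highest WT libraries and at 62.7, 73.3 and 94.2 CPM in those of UtyGT. In UtyGT 4 libraries lay below the WT range, and UtyGT 6 lay above the WT mean (log2 fold change -0.24 ± 0.12, adjusted p = 0.213). Without UtyGT 6 Rbm8a was called lower (-0.33, adjusted p = 0.047). Its near-identical copy Rbm8a2 had 16 counts in all and was not tested, and reads that fit both copies can have been divided or dropped.

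The tissue splicing regulators Rbm20, Rbm24 and Rbm38 were not called. Rbm24 had the highest mean level of the family. It was measured at 156, 225 and 294 CPM in the lowest, median and highest WT libraries and at 149, 251 and 278 CPM in those of UtyGT (log2 fold change 0.11 ± 0.15, adjusted p = 0.699). The lowest values belonged to WT 4 and UtyGT 6. Rbm20 was measured at 30.8, 44.5 and 62.7 CPM in WT and at 33.96, 58.0 and 80.9 CPM in UtyGT, with wide overlap (0.29 ± 0.21, adjusted p = 0.409). The interval of its log2 fold change, -0.15 to 0.73, includes the size of the rise in Rbm25. Rbm38, a paralog of Rbm24 and a target of p53, was measured at 45.2, 84.6 and 166 CPM in WT and at 29.4, 102 and 146 CPM in UtyGT (-0.05 ± 0.30, adjusted p = 0.945). The spread within a genotype, over 3-fold in each, exceeded the difference between the genotype means.

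The cold-inducible, translation and nucleolar group is mixed and also holds Rbm45, Rbm14 and Rbm18. It had 3 positive and 5 negative members among 8 tested, with a median log2 fold change of -0.20, which describes no single role. Rbm45 was the only one called. Rbm4 and Rbm4b, near-identical copies that regulate splicing and translation, had log2 fold changes of -0.31 and -0.32, and Rbm14, a paraspeckle protein gene, one of -0.27. Reads of Rbm4, Rbm4b and Rbm14 can be shared with each other or with the read-through gene Gm21992, so these 3 values are uncertain and not independent. Rbm28 and Rbm34, both nucleolar, had values of 0.26 and 0.39, and Rbm19, needed for ribosome assembly, had -0.12. Rbm18 had 0.27. Rbm12, Rbm12b2, Rbm15b, Rbm18 and Rbm48 each overlap another protein-coding gene, and their counts are uncertain to that extent. For Rbm12 that gene is Cpne1, on the same strand and with 1 count in all. Rbm3, the cold-shock protein gene, had 45 counts over all WT libraries and 68 over all UtyGT libraries and was not tested. Its level was 0.141, 0.918 and 1.41 CPM in the lowest, median and highest WT libraries and 0.703, 0.819 and 2.26 CPM in those of UtyGT, and these overlapped.

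The Rbms genes encode single-stranded nucleic acid binding proteins. Rbms1 was measured at 83.3, 94.2 and 146 CPM in the lowest, median and highest WT libraries and at 52.6, 107 and 131 CPM in those of UtyGT (log2 fold change -0.04 ± 0.18, adjusted p = 0.909). Rbms3 was measured at 25.3, 30.2 and 35.0 CPM in WT and at 24.5, 30.0 and 35.4 CPM in UtyGT, nearly the same ranges (0.01 ± 0.12, adjusted p = 0.982, interval -0.24 to 0.25). Rbms2 had a log2 fold change of -0.13 ± 0.14. Rbpms was measured at 32.3, 64.9 and 131 CPM in WT and at 35.0, 64.1 and 126 CPM in UtyGT, and its spread, like that of Rbm38, was wide within each genotype. Of the members with no role given, Rbm12, Rbm12b2 and Rbm43 were tested, none was called, and their log2 fold changes were 0.08 to 0.38.

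**Figure D3:**
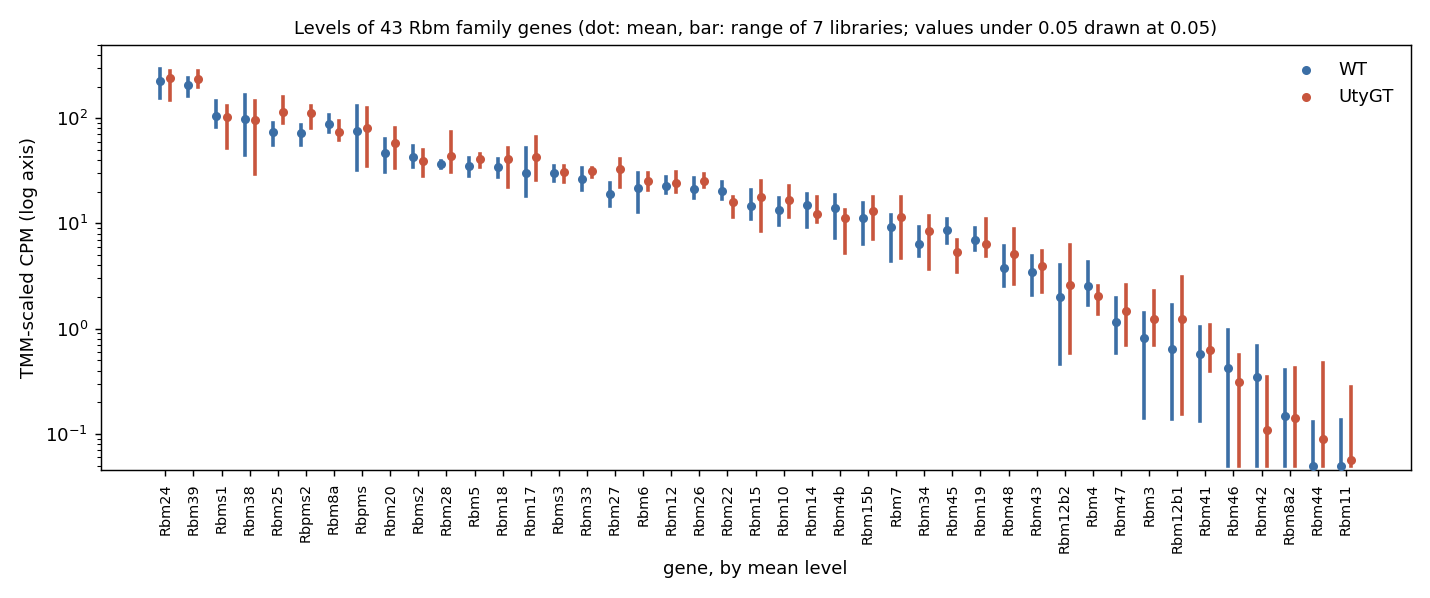
TMM-scaled CPM (vertical log axis) of 43 members in order of mean level, with the mean as a dot and the range of 7 libraries as a bar for WT (blue) and UtyGT (red). Rbm24 and Rbm39 lead at over 200 CPM, and the 9 members that were not tested form the right end, below every tested member.

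In order of level, 3 members had a mean of at least 100 CPM over all libraries (Rbm24, Rbm39 and Rbms1), 24 lay between 10 and 100, 9 between 1 and 10, and 7 under 1. Of 42 pairs of neighbors in this order, only Rbm39 and Rbms1 had WT libraries that did not overlap, and the SD in WT ran from 7.3% of the WT mean (Rbm28) to 68.8% (Rbm12b2). The 9 members that were not tested were Rbm3, Rbm8a2, Rbm11, Rbm12b1, Rbm41, Rbm42, Rbm44, Rbm46 and Rbm47, with 4 to 144 counts over all 14 libraries. Rbm44 and Rbm46, which act in germ cells, had 7 and 39 counts. Rbm42, a factor of the tri-snRNP, had 19 counts in WT and 6 in UtyGT, and Rbm41, a minor spliceosome factor, had 31 and 35.

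Members moved with the library as well as with the genotype. UtyGT 6 was the lowest of its genotype for 18 of 34 tested members and the highest for 7, and WT 4 was the lowest of its genotype for 15, whereas WT 6 and WT 7 were the highest for 10 and 11. In Rbm38, WT 4 and UtyGT 6 had 45.2 and 29.4 CPM while WT 6 and WT 7 had 166 and 157 CPM. The same libraries marked the ends for Rbpms, at 32.3 CPM in WT 4 and 35.0 in UtyGT 6 against 115 in WT 6 and 131 in WT 7. UtyGT 2, UtyGT 3 and UtyGT 7 were the highest of their genotype for Rbpms (126, 114 and 107 CPM) and for Rbm17 (67.0, 61.8 and 52.2 CPM). The summed level of the members was 1452 ± 177 CPM in WT, lowest in WT 4 (1155), and 1629 ± 186 CPM in UtyGT, lowest in UtyGT 6 (1333).

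**Figure D4:**
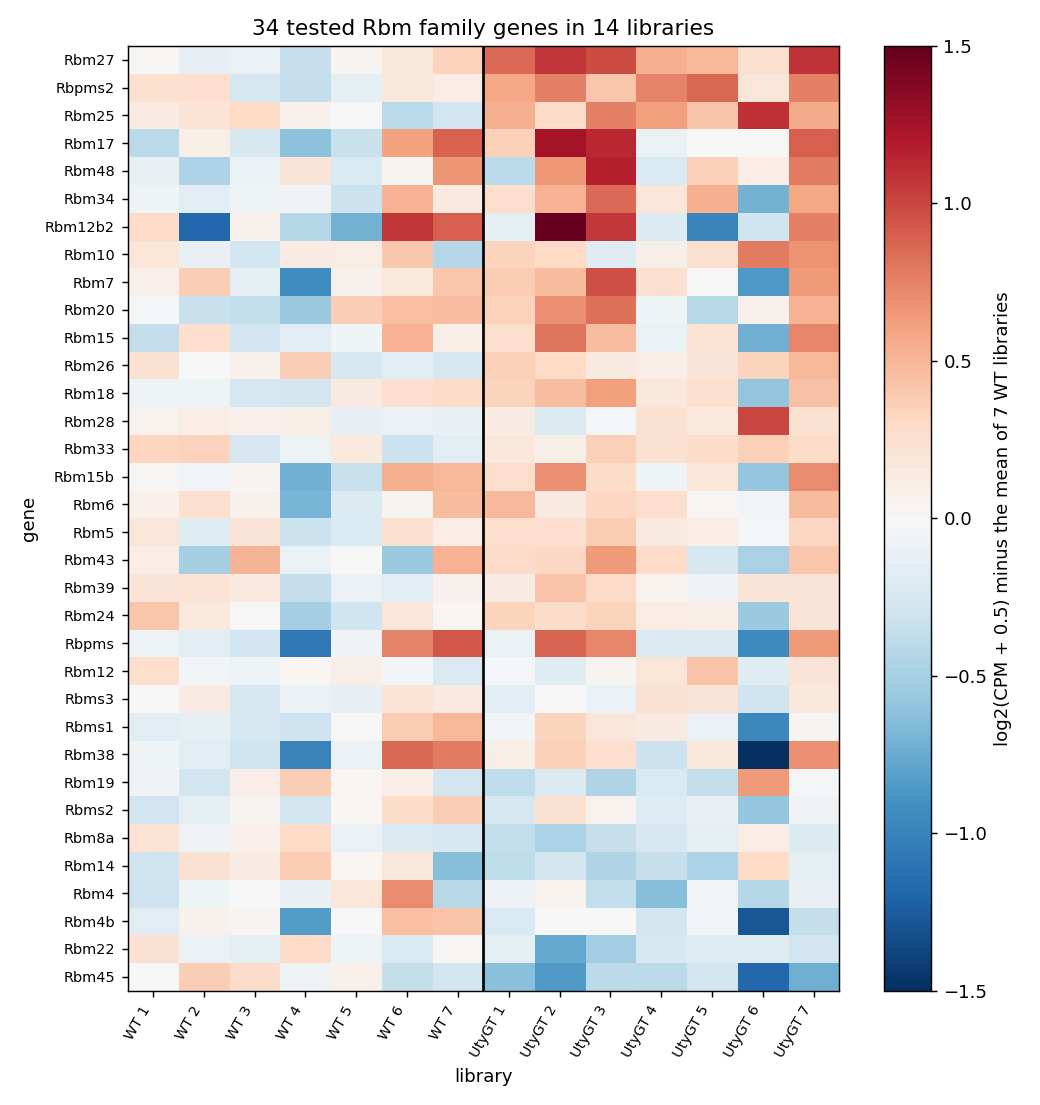
Level of 34 tested members (rows, by fold change) in 14 libraries (columns), as log2 CPM minus the mean of 7 WT libraries, with red above and blue below. The top 3 rows are red across UtyGT, while the columns of WT 4 and UtyGT 6 are blue in rows such as Rbm38 and Rbpms, in which WT 6 and WT 7 are red.

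Levels also moved with the GC content of transcripts, by library and in part by genotype. The slope of log2 level on GC content was taken per 10 points of GC and relative to the other libraries. It ran from -0.08 to 0.32 in WT, highest in WT 4, and from -0.29 to 0.14 in UtyGT, highest in UtyGT 6. In WT it was negative only in WT 6 (-0.02) and WT 7 (-0.08), and in UtyGT it was positive only in UtyGT 6. Apart from these libraries, slope and genotype went together. Tested members had a median GC content of 46.1%, against 49.7% over all tested genes. Of those that rose, Rbm25 (37.5%) and Rbm27 (42.6%) lay below the median of all tested genes, and Rbpms2 (54.4%) lay above it. With a correction for this slope the median log2 fold change of the tested members was 0.11, and Rbm27 (0.61), Rbpms2 (0.73) and Rbm45 (-0.71) were still called. Without WT 4 and UtyGT 6 together all 4 calls stood, Rbm27 at 0.81, Rbpms2 at 0.63, Rbm25 at 0.53 and Rbm45 at -0.61.

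**Figure D5:**
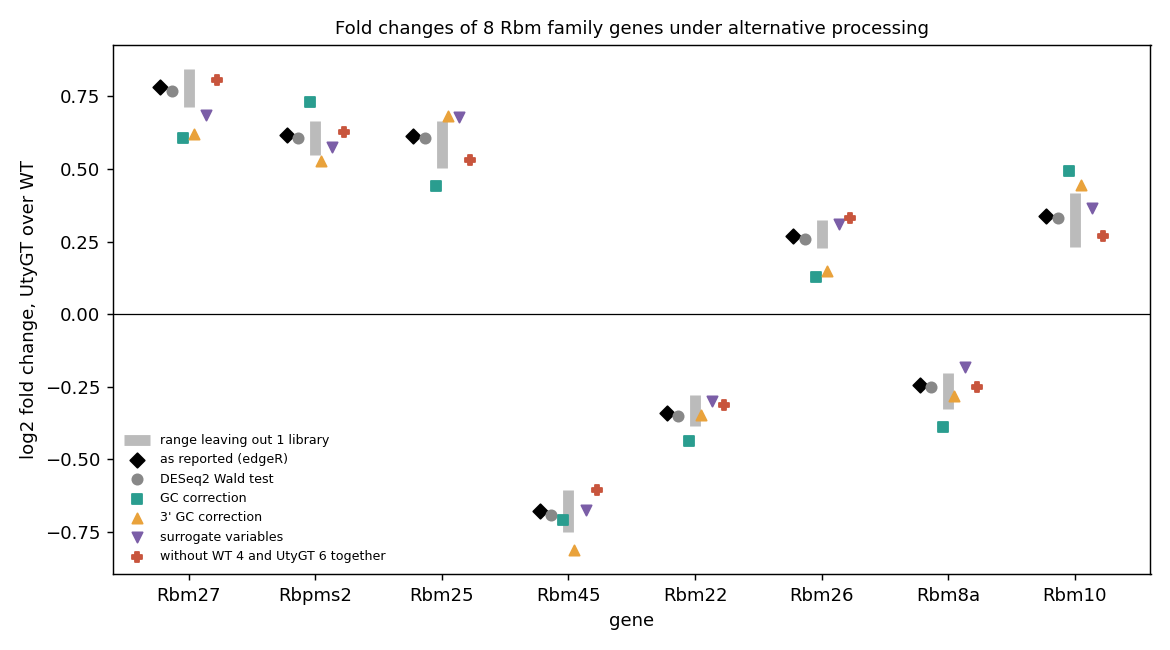
Log2 fold change of UtyGT over WT (vertical axis) of 8 members as reported and under 5 other ways of processing (symbols), with the range on leaving out 1 library in grey. For Rbm25 the square of the GC correction, at 0.44, is the lowest symbol, and none of the 8 crosses 0.

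Other genes of the same pathways were counted from lists. The shares of all tested genes to read them against are 4.7% called higher and 3.34% lower, 2.68% and 2.14% with the correction for GC content, 10.8% and 10.8% with surrogate variables, and 7.87% and 11.4% without UtyGT 6. In the m6A writer complex 1 of 5 tested genes was called higher, Cbll1 (13.8 ± 2.24 to 19.6 ± 2.60 CPM), and none lower. In the nuclear exosome and its adaptors 2 of 14 were called higher and 1 lower. Of the genes called there, the highest fold change was that of Zfc3h1, whose human protein forms the complex that RBM26 and RBM27 join. Zfc3h1 rose from 3.49 ± 1.20 to 6.67 ± 1.21 CPM (log2 fold change 0.94 ± 0.22, edgeR adjusted p = 0.0184). Exosc3 had a higher fold change (1.39 ± 0.54) but was not called (edgeR adjusted p = 0.119). Exosc8 was called higher (0.70) and Exosc5 lower (-0.79), both subunits of the exosome core. In the exon junction complex and nonsense-mediated decay, 13 genes were tested, with the decay factor Upf2 called higher (0.66 ± 0.15) and the helicase Upf1 lower (-0.59 ± 0.14). With the correction for GC content, calls higher in these 3 lists numbered 0, 1 and 1, and none was lower.

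Of 23 tested U1 and U2 factors 2 were called higher and none lower, with a median log2 fold change of -0.05. Among those called was Luc7l3 (log2 fold change 0.64 ± 0.13), which is U1-associated, as is Rbm25. Sf3a2 (-0.86 ± 0.26) and U2af2 (-0.78 ± 0.26) had larger changes the other way, with no call (edgeR adjusted p = 0.0519 and 0.0748). Of 10 tested minor spliceosome factors, Zcrb1 (0.34) and Snrnp48 (0.57) were called higher and none lower. Of 9 paraspeckle genes, Matr3 (0.50) and Tardbp (0.47) were called higher. Cirbp, the cold-inducible relative of Rbm3, fell from 66.5 ± 18.5 to 40.2 ± 10.7 CPM (-0.72 ± 0.19, adjusted p = 0.0302) and was the only one of 7 relatives called. Among 16 other tissue splicing regulators none was called higher and Elavl1, which encodes the stabilising factor HuR, fell from 64.8 ± 12.3 to 37.2 ± 7.40 CPM (-0.80 ± 0.15, adjusted p = 0.00548). With the correction for GC content no U1 and U2, minor spliceosome or paraspeckle gene was called, whereas 1 of the relatives and 1 of the tissue regulators was. Without UtyGT 6, where calls over all genes rose to 7.87% higher and 11.4% lower, 4 U1 and U2 factors were called higher and 5 lower.

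Transcripts whose splicing RBM20 controls were also listed, with no splicing measured by 3′ reads. Of 22 tested, 5 were called higher and none lower, against 4.7% and 3.34% of all tested genes, with a median log2 fold change of 0.11. Among them were Pdlim5 (log2 fold change 0.65 ± 0.19), Trdn (0.63 ± 0.17), Nexn (0.62 ± 0.13) and the calcium release channel gene Ryr2 (0.42 ± 0.12). Of these targets 1 was called higher with the correction for GC content (2.68% of all genes) and 10 with surrogate variables (10.8%), which also called 2 lower (10.8%).

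Markers of other cells moved with genotype in part. Of 5 erythroid markers Hba-a1 (log2 fold change -1.14) and Hba-a2 (-1.09) were called lower, with a summed level of 3192 to 6874 CPM in WT and 1071 to 5117 CPM in UtyGT. Of 6 endothelial markers Pecam1 (-0.51) and Tie1 (-0.50) were called lower, at sums of 986 to 1746 and 673 to 2209 CPM. Fabp4, in the same list, was measured the other way, with means of 577 ± 338 CPM (WT) and 1080.1 ± 533 CPM (UtyGT), and was not called (0.91 ± 0.42, adjusted p = 0.186). Of 8 cardiomyocyte markers Ryr2 was called higher (0.42) and none lower, with a median log2 fold change of -0.03. Myl3 was measured the other way and was not called (-0.61 ± 0.22, edgeR adjusted p = 0.098). None was called among 6 tested fibroblast markers (sums of 814 to 1012 and 779 to 1078 CPM), 9 of smooth muscle and pericytes (1354 to 1809 and 1306 to 2064), 7 of macrophages (224 to 409 and 144 to 336) and 4 of the atria (260 to 601 and 239 to 691). No marker was at 0 in all libraries. The part of these markers in the values of Rbm27, Rbpms2, Rbm25 and Rbm45 was not tested.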

How the data were processed

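RNA was measured in 14 left ventricle libraries, 1 per mouse, with genotypes taken from the sample labels. According to the study's methods, reads were aligned by the authors on Bluebee (GRCm38/mm10), and the deposited counts, not normalized, were made with featureCounts 1.6.0 on Ensembl 98. CASAVA 1.4, FastQC, STAR and DESeq2 1.22.2 are also named in the submitters' processing notes. The table holds 5 rows that name no gene in the form of htseq-count, so the counter and strand setting are not settled. These rows took 45.9% to 49.1% of reads and were left out. The authors' own fold changes and p-values in the table were not used. Column numbers name libraries within a genotype.

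Genes were kept by filterByExpr (minimum count 10), scaled by TMM and tested in edgeR 4.0.16 (R 4.3.3) by robust quasi-likelihood, with genotype alone and Benjamini-Hochberg adjustment over all 11563 tested genes (threshold 0.05; biological coefficient of variation 26.2%). Members and lists were chosen with earlier results of these data known. Values per library were given for members called, the 4 next by p, those with a role in heart or muscle and the most abundant one. Some results that this rule names are not reported here. Alternatives were DESeq2 1.42.0, RLE scaling, no filter, a filter at 1 CPM in 7 libraries, a lowess correction for GC content per library (span 0.3, 3 iterations, GENCODE M21), sva 3.50.0 (1 surrogate variable), leaving out each library, and WT 4 with UtyGT 6. A GC correction on the last 500 nt of transcripts was added after seeing the data. Scripts were tested on simulated data. Between libraries of a genotype, chi-square per gene was 6.28 to 128, so none was counted as a repeat of another. Promoter windows came from RefSeq on GRCm38.p6. Reads carry no stated molecular identifiers and may hold copies of 1 molecule.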

Additional observations from a re-analysis of the deposited data

Results flagged for a closer look

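UtyGT 6 lay far from the other UtyGT libraries for 5 members, by the gap to the nearest library relative to the range of 7. It was the highest for Rbm28 (73.1 CPM, next 42.6), Rbm14 (17.99, next 13.2) and Rbm19 (11.05, next 6.79). It was the lowest for Rbm24 (148.9 CPM, next 236.3) and Rbm4b (5.26, next 10.4). Over 72 groups examined, 5 such gaps were found, and chance gives about 1 in 20 groups; all 5 were in the same library. None of these members was called with all libraries.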

How the results depend on the processing

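No paired analysis was possible because the labels carry animal numbers that the genotypes do not share. The number of members called higher was 3, and 2 with the GC correction and 5 with surrogate variables (3 to 4 on leaving out 1 library). The number called lower was 1, and 0 without a filter, 2 with surrogate variables and 0 to 2 on leaving out 1 library. Over all tested genes 4.7% were called higher and 3.34% lower. These shares were 2.68% and 2.14% with the GC correction, and 10.8% and 10.8% with surrogate variables. They were 1.53% and 1.25% without a filter, and 7.87% and 11.4% without UtyGT 6. The median log2 fold change of tested members was 0.20, and 0.11 both with the GC correction and with surrogate variables (0.12 to 0.24 on leaving out 1 library, lowest without WT 4). Rbm27 and Rbpms2 were called under all 22 alternatives, Rbm25 under 21 and Rbm45 under 15. With surrogate variables Rbm26, Rbm28 and Rbm4b were also called, and without UtyGT 6 Rbm34 (0.50, adjusted p = 0.0486) and Rbm8a.

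Signs turned only for members that were never called under any alternative. With the GC correction these were Rbm12 (-0.0967), Rbm19 (0.0692), Rbm38 (0.237) and Rbms3 (-0.163), and with that for the last 500 nt Rbm12 (-0.036), Rbm19 (0.117), Rbm24 (-0.0432), Rbm38 (0.227), Rbms3 (-0.137) and Rbpms (-0.0242). With surrogate variables they were Rbms3 (-0.0222) and Rbpms (-0.100), and for Rbms3 also DESeq2 (-0.00654), RLE scaling (-0.00420) and no filter (-0.00446). Without WT 4 and UtyGT 6 together Rbms1 was at 0.0202. On leaving out 1 library the values ran from -0.186 to 0.126 for Rbm38, -0.111 to 0.0517 for Rbms1, -0.0335 to 0.0428 for Rbms3 and -0.0445 to 0.291 for Rbpms. Of 18 counts of calls over the other gene lists, 10 stayed within 1.5 times with the GC correction and 8 were lower, while 7 stayed and 11 were higher both with surrogate variables and without UtyGT 6. The causes were not tested.

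Over all genes, 543 were called higher and 386 lower; with surrogate variables 1251 and 1244, with the GC correction 309 and 247, with DESeq2 714 and 669, without a filter 337 and 275, without WT 4 and UtyGT 6 together 796 and 834, and without UtyGT 6 919 and 1329. On leaving out 1 library the counts ran from 276 to 919 higher and 146 to 1329 lower. At 4 to 144 counts in all, 9 members could not be tested, and among those tested Rbm12b2 (246) and Rbm4 (251) had the fewest counts.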
